A study of Mus musculus with 15 samples.

Results

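The β-globin locus control region and the chromatin on its far side were examined as contact partners of the adult β-globin promoters in 15 mouse libraries. Members were chosen by position: all DpnII fragments of chromosome 7 (mm9) in the deposited tables whose midpoint lies in the control region, which spanned chr7:111003150-111023773 (46 fragments, 20563 bp), or in the 5′ flank beyond it, which spanned chr7:111023977-111150281 (260 fragments, 117121 bp). These 306 fragments were taken from 637418 fragments of the β-globin tables. Of the 306, 174 had the 90 reads over the 9 replicated libraries that the fragment test required, 46 in the control region and 128 in the flank. The outer limits of the control region and the flank used no measured value.

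NG Capture-C joins DNA ends that lie close together in fixed nuclei and then enriches the joined products with oligonucleotides for chosen promoters, here in 2 rounds of capture. R1, R2, R3, Rm and R4 are regulatory elements of the α-globin genes, which lie on another chromosome than the fragments described here. R1R2_KO cells lacked R1 and R2, R2R3_KO cells lacked R2 and R3, and control cells carried no labelled deletion; each had 3 libraries labelled as biological replicates. R1_KO, R2_KO, R3_KO, Rm_KO and R4_KO cells each lacked the element named and had 1 library each. All 14 of these were red cell precursors from E12.5 fetal liver of the strain F1 C57Bl6 / CBA. Cultures were expanded over 5 to 7 days, mature cells bearing Ter119 were removed, and the rest were left to differentiate for 18 hours. The remaining library was the ES cell line E14 of strain 129/Ola, whose label carries the fetal liver protocol; its own growth conditions are given nowhere in the labels. The labels do not say whether replicates shared a litter or culture day, so each p-value speaks of the spread between these libraries only.

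A locus control region is a cluster of enhancer elements that raises the activity of a whole gene family. The one at β-globin lies upstream of the embryonic gene Hbb-y and is known to contact the adult β-globin promoters in erythroid cells, where these genes are active; in embryonic stem cells they are silent. Beyond it, the RefSeq gene order of GRCm38.p6, another build, places the olfactory receptor genes Olfr66, Olfr64, Olfr65, Olfr631, Olfr632 and Olfr633, which serve smell in sensory neurons and have no known role in red cells. No mm9 annotation was used, so the hypersensitive sites of the control region were not assigned to fragments.

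Unless another promoter is named, values are contacts of the captured adult β-globin promoters. The tables leave gaps at chr7:110961283-110963273 and chr7:110975292-110977138, taken as the viewpoints, so the control region lay 26012 to 46516 bp and the flank 46839 to 172503 bp from the nearer one. The labels name the adult genes Hbb-b1 and Hbb-b2; the RefSeq table names the adult pair Hbb-bs and Hbb-bt, and no table used here links the names or places the captured oligonucleotides. The 150 bases before the start of each, on the minus strand of GRCm38.p6, chr7:103827929-103828078 and chr7:103813924-103814073, are printed as the promoters of the adult pair, on the bait side of the contacts if the names correspond. Capitals mark the CACCC motif, the CCAAT box and the letters ATATAA, each on either strand, and GATC, the letters DpnII cuts.
Hbb-bs: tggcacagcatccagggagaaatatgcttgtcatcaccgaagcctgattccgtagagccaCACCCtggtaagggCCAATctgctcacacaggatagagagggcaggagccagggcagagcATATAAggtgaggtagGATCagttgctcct
Hbb-bt: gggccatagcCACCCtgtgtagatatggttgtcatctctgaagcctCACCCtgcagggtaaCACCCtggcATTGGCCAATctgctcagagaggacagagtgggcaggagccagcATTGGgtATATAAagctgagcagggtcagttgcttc
Aligned end to end, 112 of 153 positions were identical (73.2%). CACCC occurred 1 time in Hbb-bs and 3 times in Hbb-bt, the CCAAT box on either strand 1 time in Hbb-bs and 3 times in Hbb-bt, with a pair of its matches there adjoining on opposite strands, and ATATAA 1 time in each. GATC occurred 1 time in Hbb-bs and 0 times in Hbb-bt. Over the same window of 32851 mouse promoters of the table, CACCC was found in 37.4%, CCAAT in 24.5%, ATATAA in 5.35% and GATC in 26.7%. These letters describe the promoters and were not tied to any measured contact.

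The 9 replicated libraries held 45301 to 99096 reads, the 5 single deletion libraries 243961 to 470262 and ES 286120. Reads were divided by each library's chromosome 7 reads more than 2 kb from the viewpoint gaps and given per 100000 of them; a density is such a value per kb of fragment. Control-region reads numbered 3872 to 13513 in the replicated libraries, 29792 to 42967 in the single deletions and 7639 in ES; flank reads numbered 2065 to 5501, 11302 to 15953 and 19582. No control library lies in the table of the single deletions and ES, so values set across the tables compare libraries tabulated apart.

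R1R2_KO library 1 and R1_KO stood apart from the other erythroid libraries at the same few fragments, which bears on several results below. At 7 of the 174 members, R1R2_KO library 1 had at most 30% of the median of the other 8 replicated libraries while R1_KO had at most 30% of the median of the other 4 single deletions; this rule was set after the counts were seen. The same held at 24 of 327 fragments tested around the locus, 17 of them outside the control region and flank. In the control region these were chr7:111005790-111005939, chr7:111006448-111007025 and chr7:111012242-111012280, and in the flank chr7:111030763-111030917, chr7:111031287-111031727, chr7:111059717-111059869 and chr7:111059870-111060063. At chr7:111005790-111005939, R1R2_KO library 1 had 2.81 reads per 100000, against 88.0 to 208 in the other 8 libraries, and R1_KO had 6.95, against 82.6 to 118 in the other 4 single deletions. At chr7:111059870-111060063, R1R2_KO library 1 had 0, against 24.3 to 106 in the other 8, and R1_KO had 2.89, against 50.5 to 71.6.

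ES, which the rule did not use, was low at all 7 as well, with 3.51% to 24.5% of the other 4 single deletions' median (median 7.64%). At the other flank members the median of that share was 107%, and at the other control-region members 16.9%. ES was at or under 30% at 40 of the 43 other control-region members, so a low ES value there is not particular to the rule's fragments. In the flank it was so at 3 of the 124 others. Just outside the rule lay chr7:111046193-111046623, chr7:111004700-111004905 and chr7:111005940-111006447, whose higher share was 34.1%, 37.0% and 37.3%. Alone, R1R2_KO library 1 was at or under 30% at 18 of 174 members, against 0 to 3 in the other replicated libraries. The cause was not tested; results are given below with and without these fragments or that library wherever they moved.

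**Figure D1:**
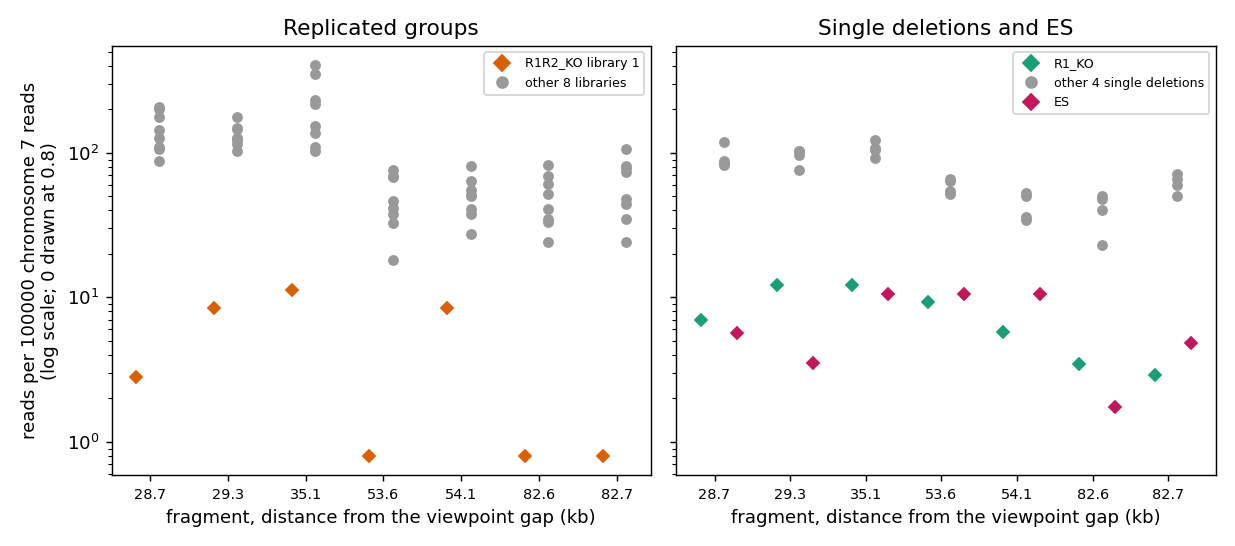
Normalized reads (log scale, per 100000 chromosome 7 reads) at the 7 members low in R1R2_KO library 1 and in R1_KO, by distance of the fragment from the nearer viewpoint gap in kb. Left, R1R2_KO library 1 as diamonds and the other 8 replicated libraries as grey circles; right, R1_KO and ES as diamonds and the other 4 single deletions as grey circles. In each column R1R2_KO library 1, R1_KO and ES sit below all of the grey circles.

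Inside the control region, contact with the adult promoters was uneven in erythroid cells and came in steps rather than as a smooth decline. In 1 kb windows the mean density of the control libraries ran from 257 to 2298 reads per kb over 21 windows, with a median of 1186. Windows above both neighbours and at least 1.5 times that median, 3 in all, were taken as contact peaks. Those at chr7:111007508-111008141 and chr7:111009552-111010487 lay in the part nearer the genes, and the one at chr7:111018635-111019506 in the farther part. Density divides by fragment length, so a peak of short fragments need not hold the most reads. The window between the nearer peaks (1410 bp) held 893, 1141 and 1315 reads in control libraries 1 to 3. The nearest peak (634 bp) held fewer, 699, 841 and 919, and the second (936 bp) held 920, 1119 and 1201. The farther peak (872 bp) held 763, 1010 and 1238, more than the windows on either side of it.

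The highest by density, chr7:111007508-111008141, had 2460, 2230 and 2504 reads per kb in R1R2_KO libraries 1 to 3, 1657, 1752 and 1774 in R2R3_KO and 2149, 2310 and 2434 in control. The R2R3_KO libraries lay below all of the others here, and R1R2_KO overlapped control. In R1_KO, R2_KO, R3_KO, Rm_KO and R4_KO its density was 2292, 2885, 2352, 2496 and 1882, and in ES 361. Each single deletion was 5.21 to 7.98 times ES.

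The peak at chr7:111009552-111010487 had 1760, 2251 and 2098 reads per kb in R1R2_KO, 1360, 1125 and 1128 in R2R3_KO and 1916, 2082 and 2155 in control. Single deletions had 1758, 2340, 1848, 2018 and 1615 in the same order, and ES 271. R2R3_KO again lay below all other erythroid libraries, by a wider margin. As a share of the control region's own reads, which needs no library size, this peak held 7.09 ± 0.41% in R2R3_KO and 8.97 ± 0.08% in control (SD, n = 3 each), and the libraries did not overlap. R1R2_KO had 9.56 ± 0.46% of its control-region reads there. The peaks were picked by their control density, which favours high control values there. Densities and shares at the 3 peaks are therefore given without a test.

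The farther peak, chr7:111018635-111019506, had 1779, 2086 and 2106 reads per kb in R1R2_KO, 1464, 1322 and 1527 in R2R3_KO and 1705, 2017 and 2384 in control. Its density was 1613 to 2310 in the single deletions and 379 in ES, and R2R3_KO again lay below all other erythroid libraries. Its share of the control region's reads was 7.90 ± 0.50% in R2R3_KO, 8.72 ± 0.36% in R1R2_KO and 8.26 ± 0.86% in control (SD, n = 3 each). The share of the nearest peak was 6.92 ± 0.63% in R2R3_KO, 7.69 ± 0.98% in R1R2_KO and 6.81 ± 0.01% in control. In order of distance, the 3 peaks held 6.83% to 8.43%, 8.65% to 9.63% and 8.15% to 8.73% of the control-region reads over the single deletions, against 6.85%, 7.59% and 9.88% in ES.

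Among the 306 members, chr7:111009748-111010461 took the most reads in control, 1026 ± 3.64 per 100000 (SD, n = 3). It was followed by chr7:111010488-111011766 with 970 ± 91.4 and chr7:111015419-111016071 with 945 ± 53.0. Fragments nearer the viewpoints were not ranked. All 10 members with the most control reads lay in the control region, which is nearer the viewpoints than the flank. The last of the 10, chr7:111017385-111018296, had 718 ± 38.9. In ES these 4 fragments had 128, 134, 164 and 101.

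**Figure D2:**
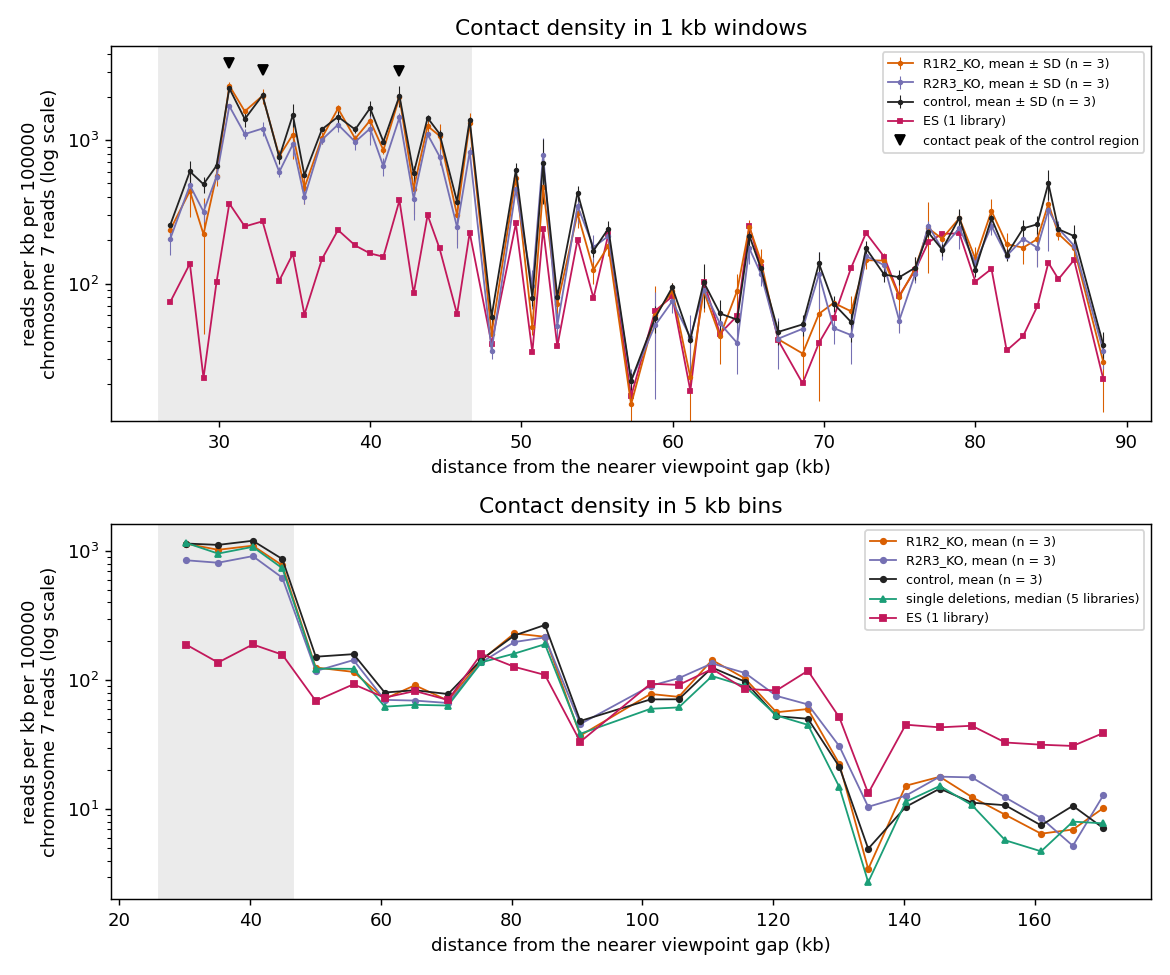
Contact density (reads per kb per 100000 chromosome 7 reads, log scale) against distance from the nearer viewpoint gap in kb; grey marks the control region. Top, 1 kb windows over the control region and the near flank for R1R2_KO, R2R3_KO and control (mean ± SD, n = 3 each) and ES, with triangles over the 3 contact peaks; bottom, 5 kb bins over the whole span, with the median of the 5 single deletions added. Across the control region the 1 kb windows range from 257 to 2298 in the control mean. Erythroid density falls at the far edge of the region, rises again near 80 kb and lies well under ES beyond 120 kb.

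The deletions were of α-globin elements, so the comparison asks whether the β-globin control region kept its contact when elements on another chromosome were missing. Control-region contact was lower in R2R3_KO than in control, spread over the whole region, whereas R1R2_KO overlapped control. The summed control-region level was 18235, 21350 and 20109 reads per 100000 in R1R2_KO, 16907, 15010 and 15721 in R2R3_KO and 19963, 21532 and 22692 in control. All 3 R2R3_KO libraries lay below all control libraries and all R1R2_KO libraries. The log2 difference from control was -0.43 ± 0.07 in R2R3_KO (SE; exact two-sided permutation p = 0.1, the smallest that 3 against 3 allows) and -0.11 ± 0.09 in R1R2_KO (exact p = 0.3). R2R3_KO minus R1R2_KO was -0.32 ± 0.08 (exact p = 0.1). The size depended on the scale: R2R3_KO differed from control by -0.19 when scaled to reads within 500 kb and by -0.74 when scaled to chromosome 7 reads farther away (exact p = 0.1 for both). In the file headers the R1R2_KO and control libraries are numbered together, whereas the R2R3_KO libraries are numbered anew. What the numbers mark is not stated, and any effect tied to them cannot be told apart from the R2R3_KO deletion.

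On the same scale the groups overlapped in the flank. Its level was 8862, 8214 and 8560 in R1R2_KO, 9482, 8447 and 8384 in R2R3_KO and 8128, 9549 and 9238 in control. Log2 differences from control were -0.07 ± 0.08 in R1R2_KO (SE; exact p = 0.5) and -0.03 ± 0.09 in R2R3_KO (exact p = 0.9), within the spread of the replicates. Scaled to reads within 500 kb, R2R3_KO turned to 0.21 above control, without overlap (exact p = 0.1). Control-region density over flank density, which cancels library size, was 11.7, 14.8 and 13.4 in R1R2_KO, 10.2, 10.1 and 10.7 in R2R3_KO and 13.99, 12.8 and 13.99 in control. R2R3_KO was below control by this measure too, by -0.40 ± 0.05 on the log2 scale (exact p = 0.1; -0.18 against the first 25 kb of the flank alone), and R1R2_KO overlapped control (-0.04 ± 0.11, exact p = 0.8).

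Over single fragments, edgeR's quasi-likelihood test with Benjamini-Hochberg adjustment over all 328 fragments tested within 500 kb was used. For R2R3_KO against control it called 2 members lower at adjusted p under 0.05 and 0 higher, both inside the control region; over all fragments tested 0.61% were called lower. At chr7:111009552-111009747, part of the second peak, R2R3_KO had 302, 303 and 300.5 reads per 100000, R1R2_KO 562, 709 and 614 and control 519, 650 and 692. The edgeR log2 change of R2R3_KO against control there was -1.04 ± 0.15 (SE, adjusted p = 0.00444). At its neighbour chr7:111009748-111010461, R2R3_KO had 710, 586 and 609, against 1027, 1022 and 1029 in control, with an edgeR log2 change of -0.69 ± 0.13 (SE, adjusted p = 0.0416).

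Most of the remaining control-region fragments moved the same way. The median log2 difference in R2R3_KO was -0.50 over the 46 control-region fragments, 44 of them negative. It was -0.05 over the 128 flank fragments, 72 of them negative, and -0.25 over all 328 tested. All 21 windows of 1 kb had a lower mean in R2R3_KO than in control. In R1R2_KO 17 had a lower mean, on a scale where the median over all fragments tested was -0.17. At unadjusted p under 0.05, 38 of the 174 members passed in R2R3_KO, against 16.8% of all fragments tested, and 13 in R1R2_KO, against 7.62%. With TMM factors in place of chromosome 7 reads, the median over all fragments was -0.01 for R2R3_KO and 0.03 for R1R2_KO, in place of -0.25 and -0.17. On that scale the control-region median was -0.27 (37 of 46 negative) and the flank median 0.20 in R2R3_KO; in R1R2_KO they turned to 0.09 and 0.12.

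Summed into 5 kb bins, the edgeR test called 4 of 27 member bins lower in R2R3_KO than in control, which were the 4 bins lying wholly in the control region, chr7:111005045-111023773; 5.6% of 125 bins were called lower. Their log2 changes, outward from the genes, were -0.43 ± 0.10, -0.46 ± 0.10, -0.40 ± 0.10 and -0.48 ± 0.12 (SE; edgeR adjusted p 0.0124, 0.0124, 0.0194 and 0.0206). R1R2_KO against control gave 0 member bins (0% of all bins; 1 member bin at unadjusted p under 0.05).

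How many fragments were called depended on single libraries, all of which enter the spread that the 3 groups share. Without R1R2_KO library 3, R2R3_KO library 2 or 3, or control library 1, 2 or 3, 1 member was called. Without R1R2_KO library 1, 33 of 167 members were called lower in R2R3_KO against control, 27 of the 46 control-region fragments and 6 of 121 in the flank; over all fragments, 20.1% were called lower in that fit. The members as a whole were thus called about as often as all fragments. The 2 fragments above had edgeR log2 changes of -1.04 ± 0.15 and -0.69 ± 0.11 (SE) in that fit. The flank fragments called lower included chr7:111060885-111061401, with -1.23 ± 0.31 (SE, edgeR adjusted p = 0.0016), where R2R3_KO had 57.3, 27.3 and 60.9 reads per 100000 and control 99.4, 104.5 and 133. Without that library 7 of 27 member bins were called for R2R3_KO, 5 lower and 2 higher, against 9.4% and 2.56% of the 117 bins tested.

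For R1R2_KO against control the edgeR test called 0 of 174 members (0% of the 328 fragments tested), and DESeq2 called 0 as well. The smallest p belonged to chr7:111008142-111009073, between the nearer peaks, where R1R2_KO had 1304, 1274 and 1153 reads per 100000 and control 828, 810 and 976. The R1R2_KO libraries lay above all control libraries there, with an edgeR log2 change of 0.51 ± 0.11 (SE, adjusted p = 0.233). Without R1R2_KO library 1 it was the 1 member called, at 0.48 ± 0.12 (SE, edgeR adjusted p = 0.0197). The next were chr7:111053787-111053871 in the flank, at 1.17 ± 0.35 (SE, edgeR adjusted p = 0.333), and chr7:111031287-111031727, at -1.39 ± 0.44 (SE, edgeR adjusted p = 0.357), which is one of the 7 fragments that were low in R1R2_KO library 1. The median log2 difference was -0.11 over the control region (32 of 46 negative) and -0.09 over the flank (74 of 128 negative). Over all fragments tested it was -0.17.

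Set directly against each other, R2R3_KO was lower than R1R2_KO at 4 members and higher at 0 in the edgeR test, with 1.83% of all fragments called lower. These 4 lay in or between the nearer peaks: chr7:111007929-111008141 (log2 -0.57 ± 0.12), chr7:111008142-111009073 (-0.82 ± 0.12), chr7:111009552-111009747 (-1.05 ± 0.15) and chr7:111009748-111010461 (-0.64 ± 0.14; SE; edgeR adjusted p 0.0273, 0.00229, 0.00229 and 0.0273). At chr7:111008142-111009073, R2R3_KO had 805, 634 and 674 reads per 100000, below the 1153 to 1304 of R1R2_KO. Without R1R2_KO library 1, 11 members were called lower and 2 higher, with 5.64% of all fragments called lower; without R1R2_KO library 2 or 3, R2R3_KO library 1 or 3, or control library 1, 2 members were called.

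A comparison with chromatin at the same distances, added after values of these data were seen and therefore given without a test, separated R2R3_KO as well. On the other, 3′ side of the genes, 45 fragments in chr7:110914539-110934019 lie at the control region's distances from the viewpoints. Control-region density over the density there was 17.3, 16.9 and 16.9 in R1R2_KO, 11.08, 10.7 and 10.9 in R2R3_KO and 16.8, 17.4 and 16.6 in control. R2R3_KO lay below all the others, by -0.64 ± 0.02 on the log2 scale against control (SE), and R1R2_KO overlapped control. Both sides moved in R2R3_KO: the 3′ density was 70.9 ± 3.16 there and 61.3 ± 4.45 in control (SD, n = 3 each). In the single deletions the ratio was 15.7 in R1_KO, 26.9 in R2_KO, 16.96 in R3_KO, 16.5 in Rm_KO and 13.9 in R4_KO, and in ES it was 1.45.

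**Figure D3:**
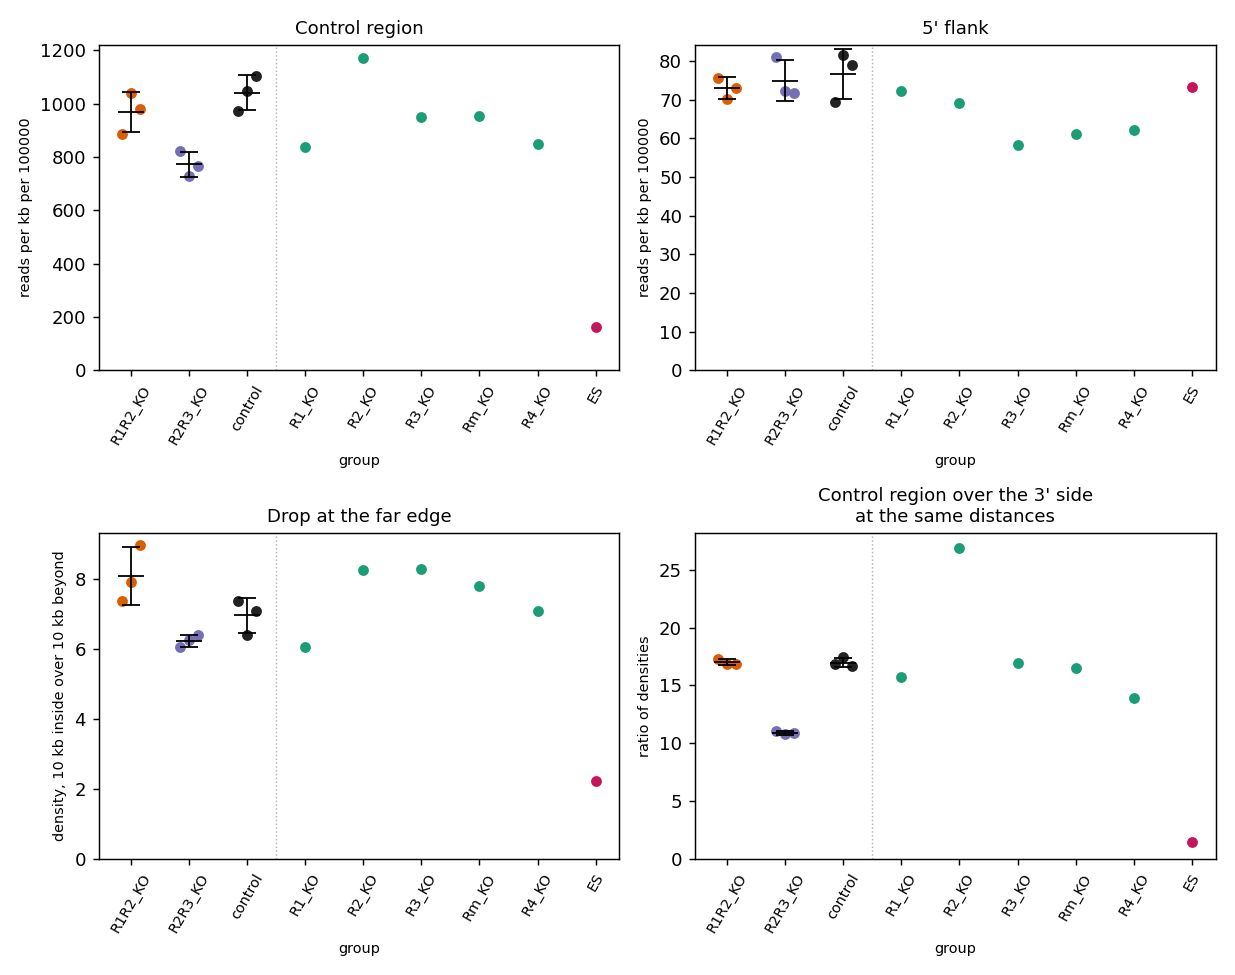
Control-region density, flank density, the drop at the far edge and control-region density over that of the 3′ side at the same distances, for each library; dots are libraries, bars the mean ± SD of the groups with 3 libraries, and the dotted line parts the deposited tables. R2R3_KO lies below control in the control region and in the ratio to the 3′ side (10.7 to 11.08, against 16.6 to 17.4), the groups overlap in the flank, and ES lies far below in all panels but the flank.

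The single deletions had no control in their table and 1 library each, so their differences have no replicate check. Control-region density was 839 in R1_KO, 1170 in R2_KO, 950 in R3_KO, 954 in Rm_KO and 850 in R4_KO. R2_KO was highest and R1_KO lowest. Without the low fragments described above, R1_KO had 869.6 and R4_KO 869.4, so that R4_KO was lowest by a small margin. Flank density was 72.3, 69.1, 58.3, 61.1 and 62.1 in R1_KO, R2_KO, R3_KO, Rm_KO and R4_KO, and 73.3 in ES.

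At the far edge of the control region erythroid contact fell several-fold. Density over the last 10 kb of the control region was 979 ± 97.7 reads per kb in R1R2_KO, 804 ± 68.2 in R2R3_KO and 1076 ± 57.1 in control; over the 10 kb beyond, chr7:111023977-111035519, it was 121 ± 11.9, 129 ± 13.5 and 155 ± 16.4 (SD, n = 3 each). Beyond the edge R1R2_KO lay below all control libraries and R2R3_KO overlapped them. The drop, inside over beyond, was 7.37, 7.93 and 8.997 in R1R2_KO, 6.06, 6.26 and 6.41 in R2R3_KO and 7.37, 6.42 and 7.11 in control. R2R3_KO lay just below all control libraries (log2 difference -0.16 ± 0.06 SE, exact p = 0.1), and R1R2_KO above them (0.21 ± 0.10 SE, exact p = 0.1). R1R2_KO library 1, at 7.373, and control library 1, at 7.372, nearly touched. Neither separation held under all settings. With the edge set 2 kb nearer the genes the R2R3_KO difference was -0.029 (exact p = 0.7). The R1R2_KO difference was 0.097 with 5 kb on each side (exact p = 0.8) and 0.16 without the 7 fragments described above (exact p = 0.4).

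The drop was 6.07 in R1_KO, 8.27 in R2_KO, 8.31 in R3_KO, 7.82 in Rm_KO and 7.10 in R4_KO. In ES it was 2.22, with 177 reads per kb inside and 79.7 beyond. Comparing 5 kb before with 5 kb after in steps of 1 kb, across the control region and the flank short of the second contact area described below, the largest fall lay at chromosome 7 position 111023500 in 11 of the 15 libraries. It lay 1 kb nearer the genes in R1R2_KO library 1 and R2R3_KO library 2, 2 kb nearer in ES, and at 111033500 in R2_KO. Farther out, all 15 libraries had a step with a larger ratio. At 111068500, beside a stretch of 5664 bp with no listed fragment, the ratio was 7.11 in control library 1, against 5.001 at 111023500. At 111065500, past the second contact area and short of that stretch, the ratio was 6.54, 5.14 and 6.52 in control. The control libraries had 5.001, 4.74 and 5.09 at 111023500. It was smaller than at 111023500 in R1R2_KO library 3 (5.67 against 5.91), R2R3_KO library 2 (3.69 against 4.33) and Rm_KO (4.71 against 5.27). In the other libraries it was larger. The last fragment of the control region, chr7:111023654-111023773, still had 166 ± 7.11 reads per 100000 on its 120 bp in control, and the next listed, chr7:111023977-111026342, had 139 ± 19.7 on 2366 bp (SD, n = 3).

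Beyond the edge the flank was uneven. Its median 1 kb window had 55.3 reads per kb in control, and 13 of 113 windows above both neighbours reached 3 times that. The highest by density, chr7:111028524-111028612, is a single fragment of 89 bp with 693 ± 332 reads per kb in control (SD, n = 3). It was followed by chr7:111026343-111027190 with 619 ± 76.8, chr7:111061591-111062339 with 499 ± 118, chr7:111030400-111031286 with 430 ± 51.8 and chr7:111055595-111056570 with 287 ± 46.1. At chr7:111026343-111027190, R1R2_KO had 616, 533 and 493, R2R3_KO 454, 476 and 436, control 531, 674 and 652, and ES 263. The R2R3_KO libraries lay below all control libraries there. The windows were picked by their control density, which favours high control values, so this is given without a test.

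A second contact area lay in chr7:111055037-111064404, 25 fragments over 9368 bp, beyond flank chromatin of lower contact. Its density was 214, 230 and 228 in R1R2_KO, 224, 178 and 214 in R2R3_KO and 216, 258 and 255 in control, so that the groups overlapped. That was 2.37 ± 0.13, 2.37 ± 0.23 and 2.499 ± 0.09 times the density of the 20 kb before it in R1R2_KO, R2R3_KO and control (SD, n = 3 each). The same ratio was 1.73 to 2.34 in the single deletions and 1.22 in ES. Its limits were set after the bins were seen.

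Farther out, erythroid contact fell again, to 10.8 ± 0.89 in R1R2_KO, 12.4 ± 0.67 in R2R3_KO and 9.90 ± 0.95 in control over chr7:111109909-111150281, against 92.6 ± 17.4, 105 ± 12.9 and 84.8 ± 3.55 over chr7:111076525-111100105 (SD, n = 3 each). At this far end, whose limits were also set after the bins were seen, R2R3_KO lay above all control libraries. The fall between these stretches was 7.68 to 9.91 times over the 9 replicated libraries, 8.56 to 10.2 times in the single deletions and 2.60 times in ES.

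The comparison of erythroid with ES cells asks how much of this contact belongs to cells in which the globin genes are active. With 1 ES library, differences in strain, cell type, growth and library cannot be told apart, and no test was made. Control-region contact was 5.84 times higher in the median single deletion than in ES, with a range of 5.15 to 7.19 times over the 5 libraries; scaled to reads of the whole genome it was 3.54 times. The ES level was 3347 reads per 100000, with an exact Poisson 95% interval of 3273 to 3423; as PCR reads carry no molecular identifiers, such intervals cover counting error only. The flank as a whole was 0.848 times ES (range 0.796 to 0.987), at an ES level of 8581 (8461 to 8702). It was 0.507 times ES on the whole-genome scale and 1.05 times with the control libraries in place of the single deletions. Control-region density over flank density was 11.6 to 16.9 in the single deletions and 2.22 in ES.

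By fragment, 243 members had 90 reads over the 6 libraries of that table. ES and the single deletions both count toward this filter. A fragment may therefore pass through the cell type in which it is high. Each of the 5 single deletions was at least 2 times ES at 43 of 46 control-region fragments and at 6 of 197 flank fragments; over all 720 fragments tested within 500 kb, 8.75% passed. Each was at most 0.5 times ES at 0 control-region and 29 flank fragments, against 23.2% of all fragments. Of the 3 control-region fragments that did not pass, R1_KO was low at chr7:111005790-111005939 and chr7:111012242-111012280. The other, chr7:111019397-111019425, had the lowest ratio of the control region, 2.13. The median ratio was 5.91 in the control region (quartiles 5.03 and 7.09) and 0.753 in the flank (quartiles 0.423 and 1.30), against 0.611 over all fragments. Without the 7 low fragments the medians were 5.83 and 0.747.

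Of the 10 highest ratios, 5 belonged to those fragments. The first of all, chr7:111006448-111007025, was 27.8, from 97.4 reads per 100000 in the median single deletion and 3.51 in ES (8 reads), and chr7:111059717-111059869 was 22.8 on 4 ES reads. The next, chr7:111030918-111030958 at 21.3 and chr7:111046193-111046623 at 17.4, rested on 1 and 3 ES reads. Ratios of 15.01, 12.45 and 10.02 followed at chr7:111005790-111005939, chr7:111059870-111060063 and chr7:111012242-111012280, all 3 among the 7. Between them stood chr7:111016948-111017384 at 11.9, with 497 reads per 100000 in the median single deletion (267 to 656) and 41.6 in ES (95 reads), the highest in the control region outside the 7. Ratios of 9.37 at chr7:111031234-111031286, on 2 ES reads, and 8.41 at chr7:111004700-111004905 completed the 10 highest. Over the 21 windows of 1 kb of the control region the ratio ran from 3.18 in the window nearest the genes to 10.96 in the window of chr7:111005790-111006447, which holds a low fragment. All 5 single deletions lay above ES in all 21 windows.

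The flank ratio changed with distance. It was 1.46 by the median fragment in the first 10 kb, 0.870 in the stretch before the second contact area, 1.53 in that area, 0.753 in chr7:111064420-111100105 and 0.268 in the last 50 kb, chr7:111100106-111150281. In that last stretch all 29 flank fragments at most 0.5 times ES were found, out of 55 with enough reads, and the density was 12.4 in the median single deletion (11.5 to 16.5) and 46.6 in ES. Of the 6 flank fragments at least 2 times ES, 4 lay in the second contact area, among them chr7:111060885-111061401 at 4.04. The 5 lowest ratios were 0.0508 at chr7:111116360-111116574, 0.0944 at chr7:111144840-111144952, 0.105 at chr7:111137625-111138007, 0.12 at chr7:111143097-111144653 and 0.124 at chr7:111117982-111118269. At the first of these the median single deletion had 1.58 reads per 100000, against 31.1 in ES (71 reads).

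**Figure D4:**
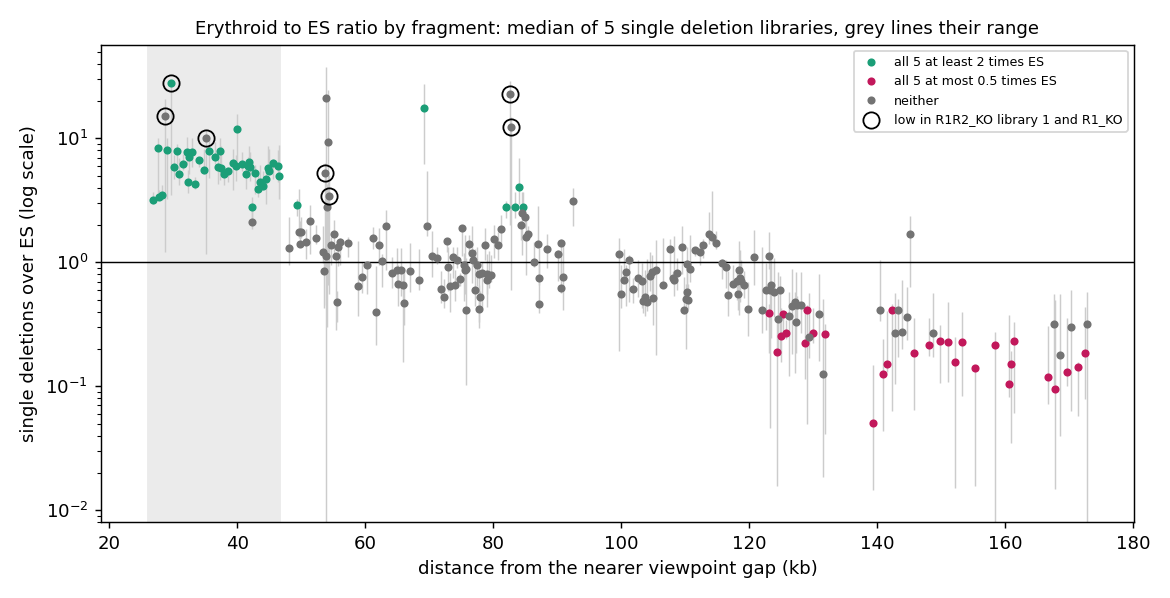
Ratio of the median single deletion to ES (log scale) for the 243 members with 90 reads over the 6 libraries, against distance from the nearer viewpoint gap in kb; grey lines span the 5 single deletions and reach the bottom of the plot where a library had 0 or near 0, grey shading marks the control region, and rings mark the 7 fragments low in R1R2_KO library 1 and R1_KO. Control-region ratios lie around 5.91, those of the flank around 0.753 with a second rise near 80 kb, and those of the last 50 kb around 0.268.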

How the data were processed

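Per the labels' protocols, DpnII 3C libraries were captured in 2 rounds. The authors deposited whole-number counts of reads for each DpnII fragment on mm9 coordinates. The submitters' processing notes name Trim Galore and Bowtie; versions were not given in the sources used here. Each table of the replicated groups holds 7 columns that match no sample; these were not used. The file headers number R1R2_KO 1 to 3, control 4 to 6 and R2R3_KO 1 to 3; what the numbers mark is unstated.

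Viewpoints were gaps of at least 1500 bp at the adult genes. Counts were scaled to chromosome 7 reads more than 2 kb from a gap. Within 500 kb, fragments holding at least 90 reads in the 9 libraries summed, and 5 kb bins likewise, were tested with edgeR 4.0.16 (quasi-likelihood test; no covariates; 1 fit of 9 libraries, Benjamini-Hochberg within a contrast) in R 4.3.3; the edgeR p-values share the spread across fragments. Region levels and ratios were compared by exact two-sided permutation, 3 against 3, which cannot go below 0.1, in Python 3.11.15 with scipy 1.17.1. The edgeR step was tested on simulated counts with the same spread in all libraries. A library that stands apart, as R1R2_KO library 1 does, was not part of that simulation. Replicate pairs differed beyond sampling noise (chi-square per degree of freedom 1.62 to 6.57 over 9 pairs), so none was counted as a duplicate.

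Named are all control-region peaks and the 5 highest flank windows of those at least 3 times the median. So are the 10 members with the most control reads (the text prints 4). Every member past 0.05 or, with none, the 3 smallest p, and the 10 highest and 5 lowest member ratios to ES are also named. The fit without R1R2_KO library 1 is described by its counts and an example picked after its values were seen. Members, lists and tests were chosen with earlier results of these data known. Alternatives were other scalings, DESeq2 1.42.0, TMM factors, other filters, edges and spans, a replicate block and leaving out each library. The mm9 sequence of the peaks was not used here.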

Additional observations from a re-analysis of the deposited data

How the results depend on the processing

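Control-region level, control-region over flank density and the drop at the edge kept their direction in R2R3_KO under all alternatives run, but not their size: the level was -0.19 scaled to reads within 500 kb, -0.57 on the whole-genome scale and -0.74 scaled to chromosome 7 beyond 500 kb, the ratio was -0.18 with the first 25 kb of the flank, and the drop was -0.029 with the edge 2 kb nearer the genes (exact p = 0.7). Leaving out each library gave log2 differences of -0.48 to -0.39, -0.44 to -0.38 and -0.21 to -0.12. In R1R2_KO the level ranged over -0.16 to -0.04, the ratio over -0.12 to 0.050 (without R1R2_KO library 1) and the drop over 0.14 to 0.28; the flank ranged over -0.14 to -0.02 in R1R2_KO and -0.10 to 0.015 (without control library 2) in R2R3_KO; the cause of these turns was not tested. Scaled to reads within 500 kb, the control-region level of R1R2_KO turned to 0.065 (exact p = 0.1), and the flank levels to 0.10 in R1R2_KO (exact p = 0.6) and 0.21 in R2R3_KO (exact p = 0.1). The R1R2_KO drop was 0.097 with 5 kb on each side (exact p = 0.8). The R1R2_KO ratio turned to 0.12 with the first 25 kb of the flank only. The ratio to ES was 3.54 in the control region and 0.507 in the flank on the whole-genome scale, and 1.05 in the flank with the control libraries over ES; leaving out a single deletion gave 5.53 to 5.85 and 0.841 to 0.896.

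Member fragments called for R2R3_KO against control, 2 as reported, were 1 with local scaling, TMM factors or DESeq2, 4 with a 5 kb exclusion zone or 200 or more reads and 32 with only these groups in the fit; leaving out a library gave 1 to 33, the highest without R1R2_KO library 1. For R1R2_KO against control, 0 as reported, they were 1 with local scaling or TMM factors and 2 with no filter, and 0 to 1 without a library. For R2R3_KO against R1R2_KO, 4 as reported, they were 2 on the whole-genome scale or with only these groups, and 2 to 13 without a library. The 4 member bins became 7 without R1R2_KO library 1. Without all 24 fragments low in R1R2_KO library 1 and R1_KO, 7 of them members, an alternative chosen after seeing the data, member calls were 0, 3 and 6 in these 3 contrasts.

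Same-numbered libraries deviated together with correlations of -0.13 to 0.28 over 328 fragments, so the numbers were not taken as pairs. With the replicate number as a block, member calls were 0 for R1R2_KO and 1 for R2R3_KO against control and 4 between them; the paired region differences keep their size by construction, and their exact sign-flip p, which cannot go below 0.25, was 0.25 for the control region in R2R3_KO. Depth limits the flank: 132 of its 260 fragments had too few reads for the test.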

Other observations

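Reads of the other captured promoters also fell on the control region, in small numbers. Of every 100000 reads of the α-globin promoters on other chromosomes, 12.8 fell on the control region in the 14 erythroid libraries together (198 reads from 12 of them; exact Poisson 95% interval 11.1 to 14.8), and 4.13 in ES (5 reads; 1.34 to 9.63). On the flank the same promoters had 7.07 (5.80 to 8.53) in erythroid cells and 3.30 (0.90 to 8.45) in ES. On the β-globin genes themselves the order was the other way, with 17.5 (15.5 to 19.7) in erythroid cells and 27.2 (18.7 to 38.3) in ES. These are sums, not values per kb, and the control region (20563 bp of fragments) is shorter than the flank (117121 bp). All of chromosome 7 took 6496 per 100000 of these α-globin reads in erythroid cells and 5550 in ES. From Slc25a37, a gene for an iron transporter of mitochondria, 3.39 (1.90 to 5.59) fell on the control region in erythroid cells and 5.52 (0.668 to 19.9) in ES. These rest on 15 reads from 7 of the 14 erythroid libraries and on 2 reads in ES. On the flank Slc25a37 had 11.5 (8.59 to 15.2) in erythroid cells and 8.28 (1.71 to 24.2) in ES. There the flank took more than the control region, unlike for the α-globin promoters. The β-globin genes took 13.3 (10.2 to 17.2) in erythroid cells and 22.1 (9.53 to 43.5) in ES. The intervals cover counting error only, and the erythroid libraries were pooled, so no difference between cell types was tested.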
